A study of Mus musculus with 16 samples.

Results

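A set of 9 liver genes that build, modify or regulate the breakdown of lipoproteins were followed through knockout of Cpt1a and through refeeding: Mttp, Tm6sf2, Soat2, Lcat, Lipc, Lpl, Pltp, Angptl4 and Angptl8. They were selected by name, each matching exactly 1 gene symbol in the deposited tables, and all 9 of the 25803 genes listed there were among the 14488 that passed the filter on low counts. The data were bulk RNA sequencing of livers from male mice after 12 weeks of a high-fat diet, in 16 libraries numbered S40 to S55. Fasted controls (S40 to S43) and fasted animals of genotype CPT1a LKO (S44 to S47) had gone 16 h without food, and refed controls (S48 to S51) and refed CPT1a LKO animals (S52 to S55) were given food for 6 h after such a fast. LKO is read here as the knockout confined to liver that the series title and design describe, and it targets CPT1a, the enzyme that lets long-chain fatty acids enter mitochondria for oxidation. All groups shared the sex and the diet. The labels give neither the age and strain of the mice nor the promoter or vector behind the knockout, and the controls are called Control in one place and WT in another.

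Liver exports triglyceride and cholesterol in very low density lipoprotein, which forms when lipid is loaded onto apolipoprotein B in the endoplasmic reticulum by the microsomal triglyceride transfer protein, the product of Mttp. In the circulation, lipases remove the lipid again: lipoprotein lipase acts at capillaries of muscle and fat, and hepatic lipase acts at the liver. Angiopoietin-like proteins from liver and other tissues inhibit lipoprotein lipase, and which of them is made changes with fasting and feeding, so that circulating triglyceride is steered to different tissues.

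The 4 groups of 4 libraries held 14721601 to 24618230 counts per library. Cpt1a itself lay between 378 and 556 CPM (counts per 1e6 counts, after scaling of library sizes) in fasted controls and between 86.1 and 126 CPM in fasted LKO. When refed it lay between 319 and 619.7 CPM in controls and between 39.9 and 75.2 CPM in LKO, so each library fell on the side its label names. Of 8 hepatocyte markers, 7 were found, and their summed level was 68240 to 72930 CPM in fasted controls against 47620 to 62690 CPM in fasted LKO, with ranges of 66690 to 85150 and 54550 to 66490 CPM in refed controls and LKO. Alb made up most of these sums, with means of 48200 and 39510 CPM in fasted controls and LKO. It passed in neither state (edgeR adjusted p = 0.135 fasted and 0.166 refed), while 4 of the 7 were called lower when fasted. The summed level of 5 lymphocyte markers was 4.11 to 7.40 CPM in fasted controls and 13.5 to 33.3 CPM in fasted LKO, and 3.67 to 5.68 against 16.4 to 36.9 CPM when refed. The part of these shifts in the results that follow was not tested, and in bulk tissue fewer cells of a type and less RNA per cell cannot be told apart. The labels do not say that libraries of a group came from separate animals, and p-values measure only the spread between these libraries.

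The sequence around the transcription start is shown for Mttp, Lipc and Angptl8, the 3 members with a call that held whichever 1 library was left out. RefSeq promoter windows of 300 bases (250 before and 50 after the start) were found for 5 of the 9 members, with 6 windows in all, on build GRCm38.p6. The 4 windows below are written 5′ to 3′ on the gene's own strand, and capitals mark every match to the patterns named after them. Mttp has 1 window, in chr3:138143369-138143668, on the minus strand. Which start these livers used was not measured, for this gene or for the others. Lipc has 2 RefSeq starts on the minus strand, in chr9:70934759-70935058 and chr9:70952172-70952471. Angptl8 starts in chr9:21835260-21835559, on the plus strand.
Mttp: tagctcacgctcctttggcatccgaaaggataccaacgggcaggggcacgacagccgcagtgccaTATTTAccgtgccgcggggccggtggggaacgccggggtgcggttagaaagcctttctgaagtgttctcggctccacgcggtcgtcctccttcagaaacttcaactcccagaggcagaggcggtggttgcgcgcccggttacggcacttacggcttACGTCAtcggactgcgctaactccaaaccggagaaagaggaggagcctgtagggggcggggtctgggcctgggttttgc
Lipc, chr9:70934759-70935058: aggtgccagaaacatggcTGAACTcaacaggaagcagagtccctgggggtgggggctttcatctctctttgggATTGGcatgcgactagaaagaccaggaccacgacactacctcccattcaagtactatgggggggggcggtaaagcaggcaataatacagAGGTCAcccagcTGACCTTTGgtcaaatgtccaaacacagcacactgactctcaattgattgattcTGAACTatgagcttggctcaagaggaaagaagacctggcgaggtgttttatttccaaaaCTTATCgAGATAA
Lipc, chr9:70952172-70952471: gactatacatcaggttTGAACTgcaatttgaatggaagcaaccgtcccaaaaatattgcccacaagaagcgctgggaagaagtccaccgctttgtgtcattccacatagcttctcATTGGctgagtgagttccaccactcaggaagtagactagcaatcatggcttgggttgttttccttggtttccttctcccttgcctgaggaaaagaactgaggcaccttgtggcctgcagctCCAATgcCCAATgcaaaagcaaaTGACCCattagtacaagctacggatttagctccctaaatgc
Angptl8: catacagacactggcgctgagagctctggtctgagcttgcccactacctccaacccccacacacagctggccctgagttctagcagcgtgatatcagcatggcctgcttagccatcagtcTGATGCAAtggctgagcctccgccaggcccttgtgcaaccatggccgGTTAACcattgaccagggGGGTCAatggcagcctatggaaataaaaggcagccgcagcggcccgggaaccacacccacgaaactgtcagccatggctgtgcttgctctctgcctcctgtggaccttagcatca

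A set of 26 short patterns, core letters of sites of transcription factors, was searched on both strands of all 32851 RefSeq mouse windows. Of these, 14 had no match in any member's window, and each of the 14 was held by between 0.00913% and 7.15% of all windows. They were the E-box CACGTG, the cyclic AMP element TGACGTCA, the sterol element letters TCACCCCAC with their looser form TCACNCCAC, and the forkhead letters TGTTTAC with their longer form TTGTTTAC. They also included CAAAGTCCA for the receptor HNF4, TTGCGCAA and the looser ATTGCNNAA for C/EBP factors, and ATCGAT for HNF6. The other 4 of the 14 were the direct repeat of AGGTCA with 1 base between copies, the full palindromes of HNF1 and of NFI, and GGTTTG followed at once by the letters CAAAG. The Lipc window at chr9:70934759-70935058 held the HNF4-type letters CAAAGGTCA on the other strand, from base -76 to -68, where base 0 is the first after the start, and 0.478% of all windows hold them. The last 6 of those letters are AGGTCA, the core letters of nuclear receptor sites (16.3% of windows), which also stood on the gene's strand from -88 to -83. Other patterns overlap likewise: TTGTTTAC contains TGTTTAC, and TGACGTCA contains TGACGT. On either strand, the same window held TGAACT (14% of windows) at -232 and -22, CCAAT (37.4%) at -177, GATAAG (7.44%) at 37 and AGATAA (11.2%) at 44. The other Lipc window held CCAAT at -135, -14 and -7, TGAACT at -234 and GGGTCA (13.7%) at 9. The Angptl8 window held TGATGCAA (0.895% of windows) at -130, GTTAAC (3.05%) at -83 and GGGTCA at -65. In the Mttp window, TATTTA (13.7% of windows) stood at -185 and TGACGT (7.51%), on the other strand, at -29. Of the windows not shown, that of Lcat held CCAAT at -80 and the overlapping letters AGATAA at -27 and GATAAG at -26, and that of Pltp held CCAAT at -182 and TATAAA (13.6%) at 36. These matches describe the letters only, and binding was not measured. Sequence outside the windows, such as around any other start of Mttp, was not searched, so a pattern without a match may still stand there.

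Ranked per length, as CPM divided by the gene's length in kilobases from the deposited tables, the members spanned a wide range of levels in these livers. Lcat had the highest mean over the 16 libraries, at 525 CPM per kilobase, and Lpl the lowest, at 2.49 CPM per kilobase. Between them stood Angptl8 at 91.3, Lipc at 51.8, Angptl4 at 44.6, Mttp at 40.5, Soat2 at 19.5, Tm6sf2 at 15.04 and Pltp at 14.5 CPM per kilobase. Lcat ranged from 466 to 638 CPM per kilobase and overlapped no other member in any library. The ranges of Lipc (32.7 to 70.1), Angptl4 (26.6 to 84.8) and Mttp (24.4 to 61.0 CPM per kilobase) overlapped one another. Those of Soat2 (15.4 to 29.6), Tm6sf2 (9.32 to 28.4) and Pltp (7.41 to 22.6 CPM per kilobase) overlapped likewise. Angptl8 ran from 6.80 to 347 CPM per kilobase, which crossed every member but Lcat and Lpl, so its place in the order depends on the group.

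**Figure D1:**
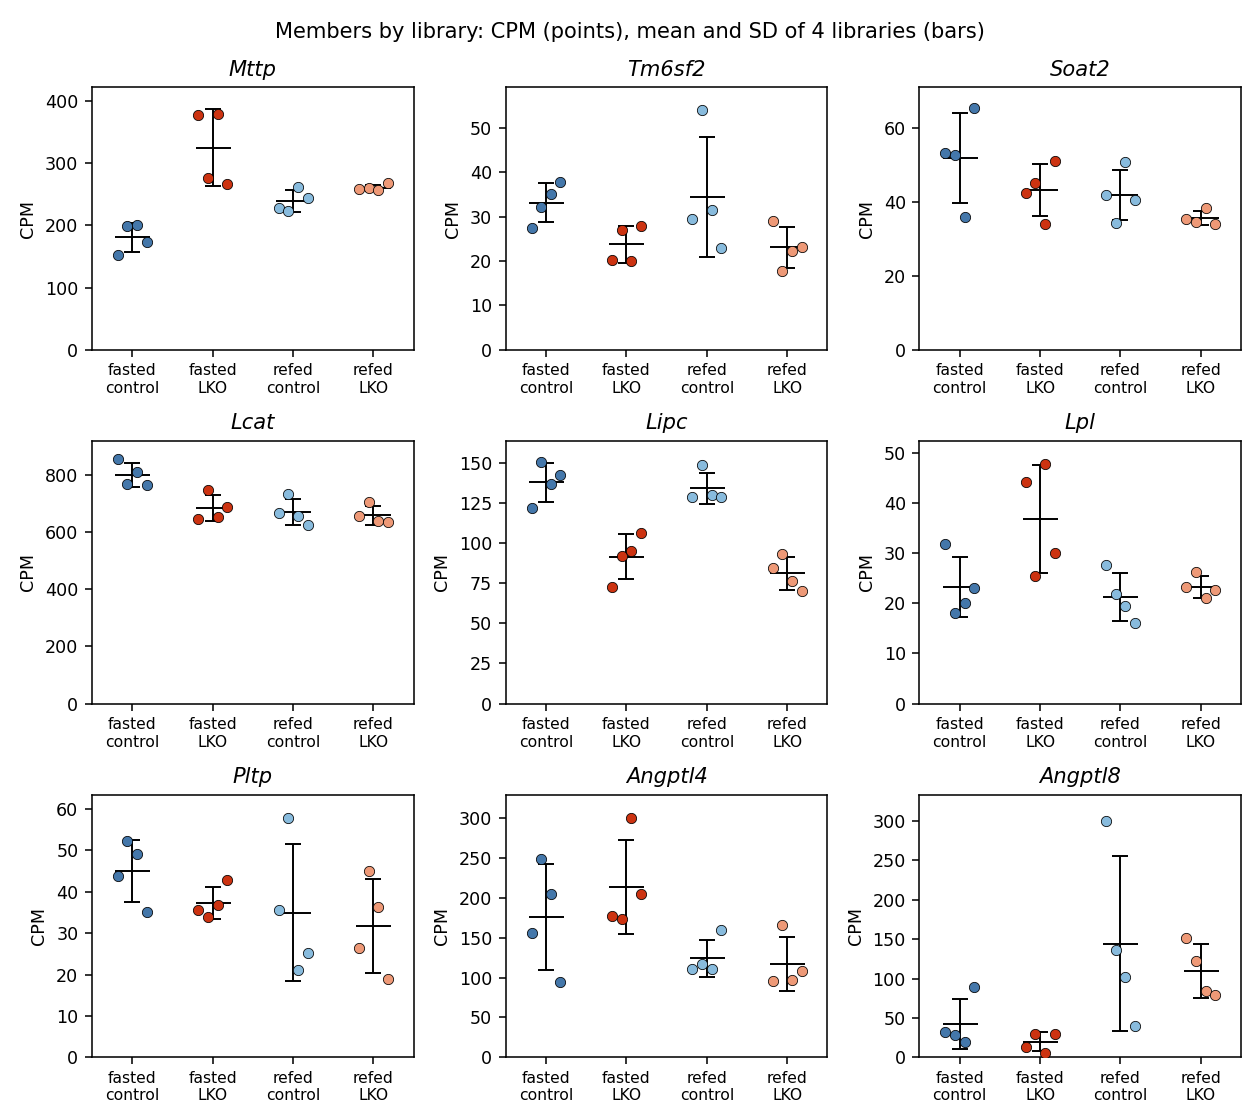
Each panel plots 1 of the 9 genes in CPM on a linear axis from 0, with a point per library, the mean as a long bar and the SD of 4 libraries as whiskers. Mttp points of fasted LKO all stand above those of fasted controls, Lipc points of LKO all stand below those of controls in both feeding states, and Angptl8 points of refed controls spread from 39.4 to 299.9 CPM.

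Mttp, whose product loads lipid onto apolipoprotein B, rose in fasted LKO livers, and after refeeding its difference between genotypes did not pass. Its level was 152, 199, 200.2 and 173 CPM in fasted controls (S40 to S43) and 377, 276.5, 379 and 267 CPM in fasted LKO (S44 to S47). Every LKO library lay above every control library, with S44 and S46 apart from S45 and S47. The means were 181 ± 23.1 and 325 ± 61.3 CPM (SD, n = 4), a log2 fold change of 0.84 (SE 0.12, edgeR adjusted p = 4.92e-04), and the call held in all 16 fits that left out 1 library. Refed libraries lay above every fasted control and, all but S55, below every fasted LKO library. They measured 228, 223, 261.5 and 245 CPM in controls (S48 to S51) and 257.5, 259.7, 257 and 267 CPM in LKO (S52 to S55), and the ranges overlapped. The refed difference was 0.12 on the log2 scale (SE 0.12, edgeR adjusted p = 0.644).

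Mttp rose with refeeding in controls, and in LKO the estimate had the opposite sign. Controls went from 181 to 239 ± 17.4 CPM, a log2 rise of 0.40 (SE 0.12, edgeR adjusted p = 0.0318) with no overlap between groups. This call was lost without S40 (adjusted p = 0.110), S43 (0.0798), S48 (0.0531), S50 (0.0949) or S51 (0.0534). In LKO the mean was 325 CPM when fasted and 261 ± 4.70 CPM when refed, a log2 difference of -0.32 (SE 0.12) that did not pass (edgeR adjusted p = 0.0773) but did without S45 (0.0441) or S47 (0.0303). The test of the genotype effect when refed minus that when fasted gave -0.72 (SE 0.17) with an edgeR adjusted p of 0.0582. That value came under 0.05 with upper quartile scaling (0.0489), with genes of at least 5 CPM on average (0.0386), with DESeq2 (0.00619), and without S45 (0.0383), S47 (0.0360) or S49 (0.0459). No member passed this test, against 0.538% of all genes. At an unadjusted edgeR p below 0.05 Mttp was the 1 member, and DESeq2 called 1 member.

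Tm6sf2 encodes a membrane protein of the endoplasmic reticulum and Golgi needed for full lipidation of very low density lipoprotein. It measured 27.5, 32.2, 35.1 and 37.8 CPM in fasted controls and 20.2, 26.9, 19.95 and 27.85 CPM in fasted LKO. Only S40 of the controls came within the LKO range. The difference of -0.48 (SE 0.22) did not pass the test (edgeR adjusted p = 0.164), whereas in the authors' deposited table it did (adjusted p = 0.0229). In refed controls the 4 libraries held 29.5, 53.96, 31.4 and 22.8 CPM, with S49 far above the others. Refed LKO libraries held 29.1, 17.7, 22.3 and 23.2 CPM, and the log2 difference was -0.58 (SE 0.22, edgeR adjusted p = 0.156). The estimate had the same sign in both states and passed in neither. With feeding state Tm6sf2 differed by 0.06 in controls and -0.04 in LKO on the log2 scale (edgeR adjusted p = 0.890 and 0.934).

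Soat2, the enzyme of hepatocytes that esterifies cholesterol for storage and for packaging into lipoproteins, passed in no comparison. Its mean was 51.9 ± 12.2 CPM in fasted controls, 43.2 ± 7.09 in fasted LKO, 41.9 ± 6.79 in refed controls and 35.6 ± 1.91 CPM in refed LKO (SD, n = 4). Fasted controls were the most spread, from 35.9 (S42) to 65.5 CPM (S43), and overlapped every other group. The log2 differences were -0.26 and -0.24 for LKO against control when fasted and refed, and -0.31 and -0.28 for refed against fasted in controls and LKO, each with SE 0.16. The smallest edgeR adjusted p of these was 0.203, for controls, and it was 0.0416 without S42.

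Hepatic lipase, encoded by Lipc and made mainly by hepatocytes, hydrolyses triglyceride and phospholipid in lipoprotein remnants and HDL. Its mRNA fell in LKO livers in both feeding states. Fasted controls held 122, 151, 137 and 143 CPM and fasted LKO 72.5, 92.3, 95.2 and 107 CPM. Refed controls held 129, 149, 130.0 and 129 CPM and refed LKO 84.5, 93.6, 76.3 and 70.4 CPM. The LKO libraries lay below the control libraries in each state without overlap, and the lowest of all 16 was S55. Means went from 138 ± 12.2 to 91.7 ± 14.2 CPM when fasted (log2 fold change -0.59, SE 0.11, edgeR adjusted p = 0.00362) and from 134 ± 9.63 to 81.2 ± 10.1 CPM when refed (-0.73, SE 0.12, edgeR adjusted p = 0.00276). Both calls held in all 16 fits that left out 1 library. Refeeding left Lipc near its fasted level, with log2 differences of -0.04 (SE 0.11) in controls and -0.18 (SE 0.11) in LKO (edgeR adjusted p = 0.849 and 0.325). The genotype effects in the 2 states differed by -0.14 (SE 0.16, edgeR adjusted p = 0.718). Hepatocyte markers moved with Lipc when fasted: 4 of the 7 found (Ahsg, Fgb, Serpina1c and Ttr) were called lower and the list's median was -0.51, against 0.02 for all genes. When refed, none of the 7 was called and their median was -0.21, against -0.01 for all genes. In both states none of the 7 had an estimate above 0. The part of hepatocyte RNA in the Lipc values was not tested.

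Lpl, the gene of lipoprotein lipase, is mainly made in fat and muscle and was the lowest member per length. It measured 31.7, 18.1, 19.97 and 23.1 CPM in fasted controls and 44.1, 25.4, 47.8 and 29.9 CPM in fasted LKO. S44 and S46, which also had the highest Mttp, were high, while S45 and S47 lay below the control S40, so the groups overlapped. The means of 23.2 ± 6.035 and 36.8 ± 10.8 CPM gave a log2 fold change of 0.66 (SE 0.21, edgeR adjusted p = 0.0475). The call held in 5 of 16 fits that left out 1 library, and adjusted p reached 0.1505 without S46. It was also lost with limma-voom (0.0515) and with only the 2 groups in the fit (0.103). Refed controls held 27.5, 21.8, 19.5 and 16.1 CPM and refed LKO 23.2, 26.3, 21.0 and 22.5 CPM, and the log2 difference was 0.13 (SE 0.21, edgeR adjusted p = 0.802). In LKO, Lpl fell with refeeding by 0.66 on the log2 scale (SE 0.21, edgeR adjusted p = 0.0357), with overlap between S45 and S53. That call was lost without S44 (0.105), S46 (0.117), S52 (0.0782), S54 (0.0824) or S55 (0.0827). In controls it differed by -0.13 (SE 0.21, edgeR adjusted p = 0.715), and the genotype effects in the 2 states differed by -0.53 (SE 0.29, edgeR adjusted p = 0.387).

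Markers of fat and muscle, the main sources of Lpl outside the liver, gave the following levels. The adipocyte genes Adipoq, Lep, Plin1 and Retn were each below 0.5 CPM in every library. The sum of all 8 adipocyte markers was 144 to 222 CPM in fasted controls and 229.5 to 439 CPM in fasted LKO, highest in S44 (439) and S46 (427). Members of the list went both ways: Cidec, a lipid droplet gene that fatty hepatocytes also express, was called higher, at 58.9 ± 18.8 and 269.8 ± 101 CPM (SD, n = 4), and Cfd, the adipsin gene, was called lower, at 34.4 and 3.24 CPM (log2 fold change -3.45, edgeR adjusted p = 0.0182). Neither Fabp4 (16.2 and 33.7 CPM) nor Plin4 (72.2 and 49.9 CPM) passed the test (edgeR adjusted p = 0.173 and 0.337). When refed the sum was 68.25 to 196 CPM in controls and 89.9 to 139 CPM in LKO. The 5 muscle markers found summed to between 0.432 and 1.90 CPM over all libraries.

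Lcat encodes the plasma enzyme, secreted by liver, that esterifies cholesterol on HDL. None of its groups spanned more than 1.17 times from lowest to highest library. Fasted controls held 856, 769.9, 812 and 764 CPM, above all other groups. Fasted LKO held 646, 749.6, 655 and 690.2 CPM, refed controls 666, 734, 656 and 625 CPM, and refed LKO 656, 708, 639.5 and 636.5 CPM. The fasted controls overlapped no other group, and the other 3 groups overlapped one another. Lcat fell with refeeding in controls, from 801 ± 42.8 to 670.2 ± 45.75 CPM (log2 fold change -0.26, SE 0.08, edgeR adjusted p = 0.0397). The call was lost in 10 of the 16 fits without 1 library, with an adjusted p of 0.123 at most (S40), and also without a filter on low counts (0.103) and with only the 2 groups in the fit (0.0625). The fasted LKO mean of 685 ± 47.1 CPM gave a log2 difference of -0.22 (SE 0.08) from controls, which did not pass with edgeR (adjusted p = 0.0782) and did with DESeq2 (0.0202) or without S45 (0.0406). Refed LKO differed from refed controls by -0.02 (SE 0.08, edgeR adjusted p = 0.925) and from fasted LKO by -0.05 (SE 0.08, edgeR adjusted p = 0.696).

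Pltp, the phospholipid transfer protein that moves surface lipid from triglyceride-rich particles to HDL, passed in no comparison. Group means were 45.1 ± 7.46 and 37.3 ± 3.89 CPM in fasted controls and LKO and 34.9 ± 16.5 and 31.6 ± 11.4 CPM in refed controls and LKO (SD, n = 4). The refed groups were the most spread. Refed controls held 35.7, 57.9, 21.0 and 25.2 CPM in S48 to S51, where the summed level of 8 markers of resident macrophages was 525, 813, 317 and 217 CPM. S49 was highest and S48 second in both. In refed LKO, Pltp was 26.3, 44.9, 36.3 and 19.0 CPM beside macrophage sums of 243, 284, 339 and 227 CPM. Their part in the spread of Pltp was not tested. Its log2 differences were -0.28 (SE 0.27) and -0.15 (SE 0.28) with genotype and -0.37 and -0.24 (SE 0.28 each) with feeding state, and the smallest edgeR adjusted p was 0.397.

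Angptl4 encodes a secreted inhibitor of lipoprotein lipase that is known to rise in fasting. It measured 156, 248, 205 and 94.0 CPM in fasted controls and 177, 174, 300.1 and 205 CPM in fasted LKO. Refed libraries held 111, 117, 110.2 and 159 CPM in controls and 95.5, 166, 97.4 and 108 CPM in LKO. The fasted control S43 was the lowest of all 16 and the refed control S51 stood apart from the other 3 of its group. Genotype made no difference that passed in either state: 0.28 (SE 0.26) when fasted and -0.09 (SE 0.26) when refed, with edgeR adjusted p of 0.531 and 0.899. Angptl4 fell with refeeding in LKO, from 214 ± 59.2 to 117 ± 33.5 CPM without overlap (log2 fold change -0.87, SE 0.26, edgeR adjusted p = 0.0284). The call was lost without S46 (0.0994), S52 (0.0880), S54 (0.0739) or S55 (0.0744). In controls the means were 176 ± 66.35 and 124 ± 23.4 CPM, the ranges overlapped, and the difference of -0.50 (SE 0.26) did not pass (edgeR adjusted p = 0.212). The 2 feeding effects differed by -0.37 (SE 0.37, edgeR adjusted p = 0.650), so a difference between genotypes in the response to food was not shown.

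Angptl8, a secreted protein of liver and fat that is known to be induced by feeding and to direct inhibition of lipoprotein lipase to muscle, was the member that varied most. Fasted controls held 32.1, 27.96, 19.9 and 89.1 CPM and fasted LKO 13.1, 30.04, 5.89 and 29.2 CPM. Refed controls held 299.9, 136, 102 and 39.4 CPM and refed LKO 152, 122, 84.7 and 79.6 CPM. Every refed LKO library exceeded every fasted LKO library, whereas the refed control S51 lay below the fasted control S43. Angptl8 rose with refeeding in LKO from 19.6 ± 12.0 to 109.6 ± 34.0 CPM (log2 fold change 2.49, SE 0.60, edgeR adjusted p = 0.00882), a call held in all 16 fits that left out 1 library. It rose in controls too, from 42.3 ± 31.65 to 144 ± 111 CPM (1.77, SE 0.58, edgeR adjusted p = 0.0487). The control call held in 4 of those 16 fits, and without S48 the value was 1.13 with an adjusted p of 0.199. Without S43 the value was 2.44 with an adjusted p of 0.0191. The control call was also lost with limma-voom (0.0516) and with only the 2 groups in the fit (0.0745). In the authors' deposited table this rise did not pass (adjusted p = 0.0703). The feeding effects of the 2 genotypes differed by 0.72 (SE 0.81, edgeR adjusted p = 0.699). LKO differed from control by -1.11 (SE 0.58) when fasted and -0.40 (SE 0.56) when refed, and neither passed (edgeR adjusted p = 0.236 and 0.769). Without S43 the fasted difference was -0.45 (adjusted p = 0.679), and without S48 the refed difference turned to 0.24 (adjusted p = 0.885).

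Angptl8 lies wholly within the span of Dock6 on the opposite strand, at positions 21746806 to 21748643 of chromosome 9 in the deposited tables, whose build is mm39 per the submitters' processing notes. Overlaps here are of whole gene spans, and whether exons of the 2 genes overlap was not examined. Whether the counts used strand is not given in the sources used here. Where exons overlap and strand was not used, reads of the 2 genes would be hard to tell apart. Without strand, reads of unspliced Dock6 RNA could also fall on Angptl8, and this was not examined. Dock6 also rose with refeeding, by 0.76 in controls and 0.64 in LKO on the log2 scale (SE 0.20 and 0.21, edgeR adjusted p = 0.0185 and 0.0396). Its means were 18.4 and 31.3 CPM in fasted and refed controls and 13.5 and 21.0 CPM in fasted and refed LKO. Mttp shares 1521 bases with Trmt10a on the other strand, which averaged 3.63 CPM, and Pltp shares 1515 bases with Ctsa, which averaged 212 CPM. Ctsa fell with refeeding in controls by 0.38 on the log2 scale (SE 0.10, edgeR adjusted p = 0.0145), where Pltp did not pass. The other overlapping genes, in Lipc, Lcat and Mttp, averaged at most 0.114 CPM.

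**Figure D2:**
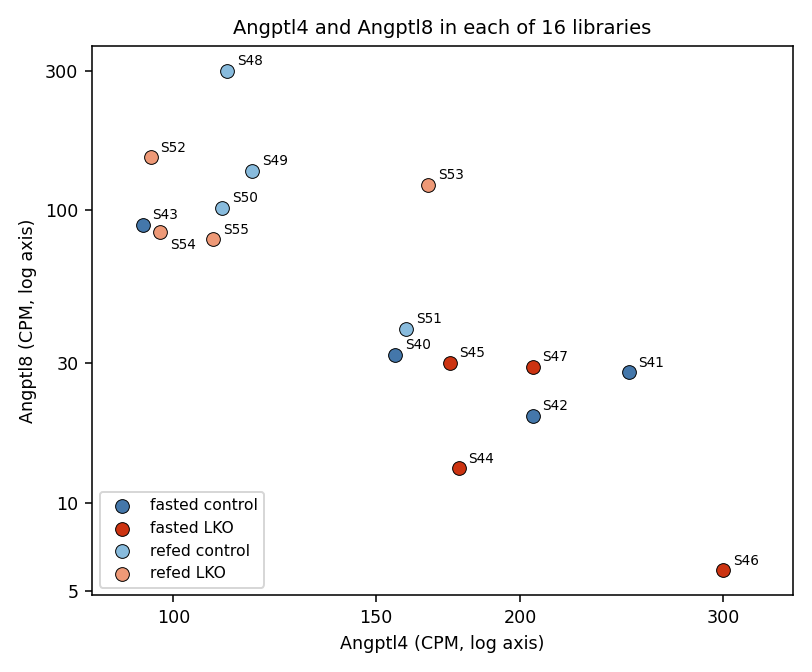
Each point is 1 of 16 libraries, coloured by group and named, with Angptl4 in CPM on the x axis and Angptl8 in CPM on the y axis, both logarithmic. Fasted libraries other than S43 stand at the lower right and refed libraries other than S51 at the upper left or top.

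The balance of the pair was read per length within each library, as the ratio of Angptl8 to Angptl4 in CPM per kilobase. Fasted controls gave 0.843, 0.461, 0.397 and 3.88, and fasted LKO gave 0.304, 0.708, 0.0803 and 0.583. Angptl4 was thus the higher of the pair in all fasted libraries but S43. Refed controls gave 11.03, 4.77, 3.79 and 1.01, and refed LKO gave 6.51, 3.003, 3.56 and 3.01. Angptl8 was the higher per length in all 8 refed libraries, by the least in S51. In CPM, without length, Angptl8 was the higher in S48, S49 and S52 only, and Angptl4 in every other library, S43 included. The order within a library thus rests on the gene lengths of the deposited tables. Each of the 4 groups held a library with extreme values of both genes in opposite directions. In groups of 4, 2 unrelated genes would often give such a library too, and no test of this pattern was made. S43 of the fasted controls, S45 of fasted LKO and S52 of refed LKO had the lowest Angptl4 and the highest Angptl8 of their groups. S46 of fasted LKO and S51 of the refed controls had the highest Angptl4 and the lowest Angptl8. Srebf1, the gene of a transcription factor of lipid synthesis that insulin induces, was 208 CPM in S43, the highest of the fasted controls (197, 146 and 174 CPM in the others). In S51 it was 213 CPM, the lowest of the refed controls (559.9, 422 and 302 CPM in the others). In fasted LKO, Srebf1 was 45.9 CPM in S45, the highest of the group, and 35.1 CPM in S46, which was not the lowest (36.4 and 34.6 CPM in the other 2 libraries). In refed LKO it was 373 CPM in S52, the highest, and 168, 183 and 203 CPM in the others. What sets these libraries apart was not tested.

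**Figure D3:**
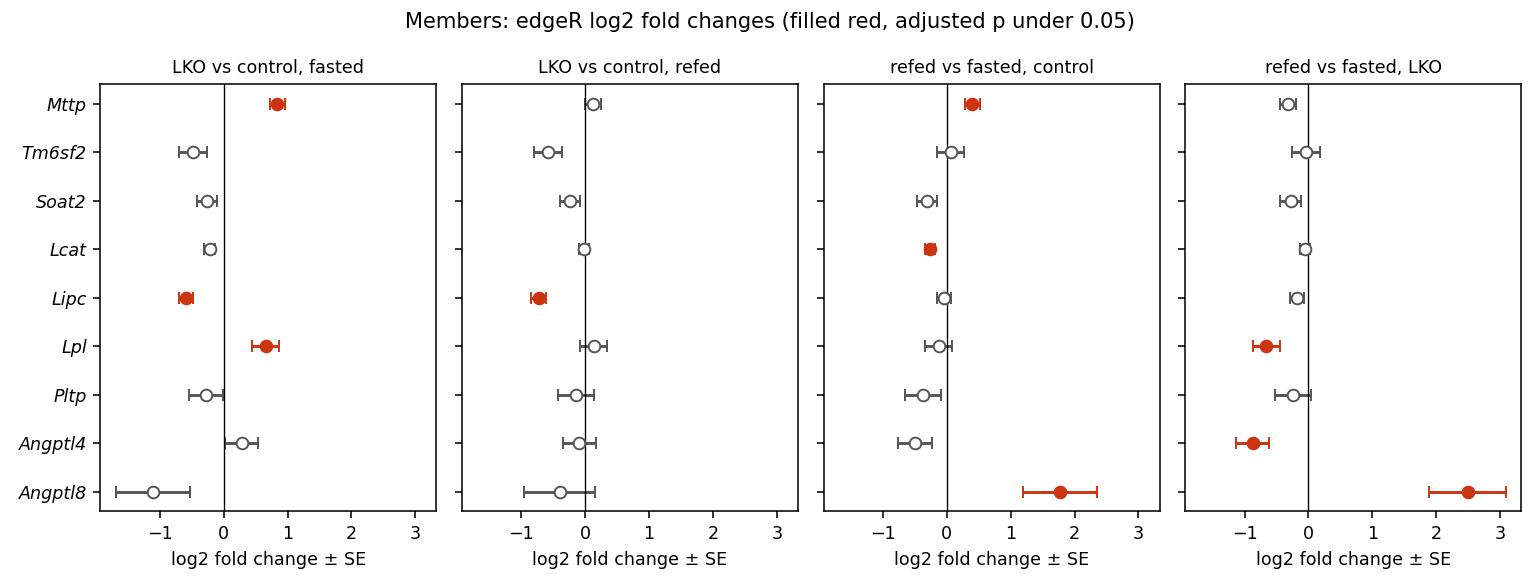
Points are edgeR log2 fold changes of the 9 genes with SE as whiskers, in 1 panel per comparison, and filled points have an adjusted p under 0.05. Lipc is filled and below 0 in both genotype panels, Mttp is filled and above 0 when fasted, and Angptl8 is filled and above 0 in both feeding panels.

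Counted over the members, 3 of 9 were called between LKO and control when fasted (Mttp and Lpl higher, Lipc lower), where 12.2% of all genes tested were called, 5.75% higher and 6.48% lower. When refed, 1 of 9 was called (Lipc, lower), against 3.63% of all genes, 2.28% higher and 1.35% lower. Refeeding was called for 3 of 9 members in controls (Mttp and Angptl8 higher, Lcat lower), against 15.4% of all genes (7.79% higher, 7.65% lower), and for 3 of 9 in LKO (Angptl8 higher, Angptl4 and Lpl lower), against 18.1% (9.28% higher, 8.78% lower). The comparisons share groups: fasted controls, for example, enter both the fasted genotype comparison and the feeding comparison of controls. Groups did not overlap for Mttp, Lcat and Lipc between fasted genotypes (16.9% of all genes), for Lipc between refed genotypes (11.7%), for Mttp and Lcat with feeding in controls (20.4%), and for Angptl4 and Angptl8 with feeding in LKO (20.6%). No test of these counts was made.

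Further genes of the same pathways were followed in 3 lists. Of 53 names, 51 were found and tested, and Lpal2 and Pnlip matched no listed symbol. In the fasted comparison of genotypes 11 of the 51 were called, 5 higher and 6 lower, and in the refed comparison 2, beside 12.2% and 3.63% of all genes tested. Among 20 genes of assembly and export, Tor1a, an ATPase of the endoplasmic reticulum and nuclear envelope that affects lipoprotein secretion, was the 1 called and rose in both states. It went from 76.4 ± 5.63 to 109.7 ± 13.99 CPM when fasted (log2 fold change 0.52, SE 0.12, edgeR adjusted p = 0.0102) and from 86.8 ± 15.2 to 121.5 ± 9.77 CPM when refed (0.48, SE 0.12, edgeR adjusted p = 0.0348). The list's median was 0.02 when fasted and -0.05 when refed, beside 0.02 and -0.01 for all genes. Apob, the apolipoprotein that Mttp acts on, was 2695 ± 227 CPM in fasted controls and 3059 ± 162 in fasted LKO, a log2 difference of 0.18 (SE 0.10) that did not pass (edgeR adjusted p = 0.254). P4hb, the other subunit of the Mttp transfer complex, differed by 0.02 (SE 0.10, edgeR adjusted p = 0.910) between fasted genotypes.

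Of 17 genes of lipases and their control, 3 were higher in fasted LKO and 3 lower, and none was called when refed. Lipa, lysosomal acid lipase, rose from 155 ± 10.1 to 301 ± 62.0 CPM (log2 fold change 0.96, SE 0.12, edgeR adjusted p = 2.38e-04). Apoc2, the cofactor lipoprotein lipase needs, and Apoa5, which favours its action, also rose, by 0.97 and 0.55 on the log2 scale (edgeR adjusted p = 0.00191 and 0.0461). Few reads were counted for Apoc2 throughout, at 3.05 ± 0.335 CPM in fasted controls and 5.99 ± 1.26 CPM in fasted LKO. Overlap with other genes, which can cost a gene reads in counting, was examined for the members only. Whether the Apoc2 counts reflect its true level is therefore not known. Lmf1, a factor of the endoplasmic reticulum that lipoprotein lipase and hepatic lipase need to fold, fell from 63.55 ± 3.26 to 48.9 ± 4.13 CPM when fasted (-0.38, SE 0.09, edgeR adjusted p = 0.0126). Apoc1 and Apoe were the other 2 that fell, by 0.42 and 0.35 on the log2 scale. Gpihbp1, the endothelial anchor of lipoprotein lipase, and Lipg, endothelial lipase, differed by -0.09 (SE 0.17) and 0.03 (SE 0.33), short of the threshold (edgeR adjusted p = 0.778 and 0.971).

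Of 14 genes of cholesterol esters and HDL remodelling, Nceh1 rose in fasted LKO and Scarb1, Lrp1 and Vldlr fell. Nceh1, a hydrolase of cholesterol esters, went from 28.3 ± 1.21 to 69.2 ± 22.4 CPM (log2 fold change 1.29, SE 0.27, edgeR adjusted p = 0.00583). Vldlr, a receptor for triglyceride-rich particles that was low in every group, fell from 4.52 ± 1.48 to 1.71 ± 0.866 CPM when fasted and from 3.625 ± 0.456 to 1.26 ± 0.397 CPM when refed (-1.41 and -1.52, SE 0.32 and 0.33, edgeR adjusted p = 0.00967 and 0.0191). Soat1, the counterpart of Soat2 found in most tissues, differed by 0.08 (SE 0.21, edgeR adjusted p = 0.862) between fasted genotypes. The median of the list was -0.17 when fasted and -0.13 when refed.

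**Figure D4:**
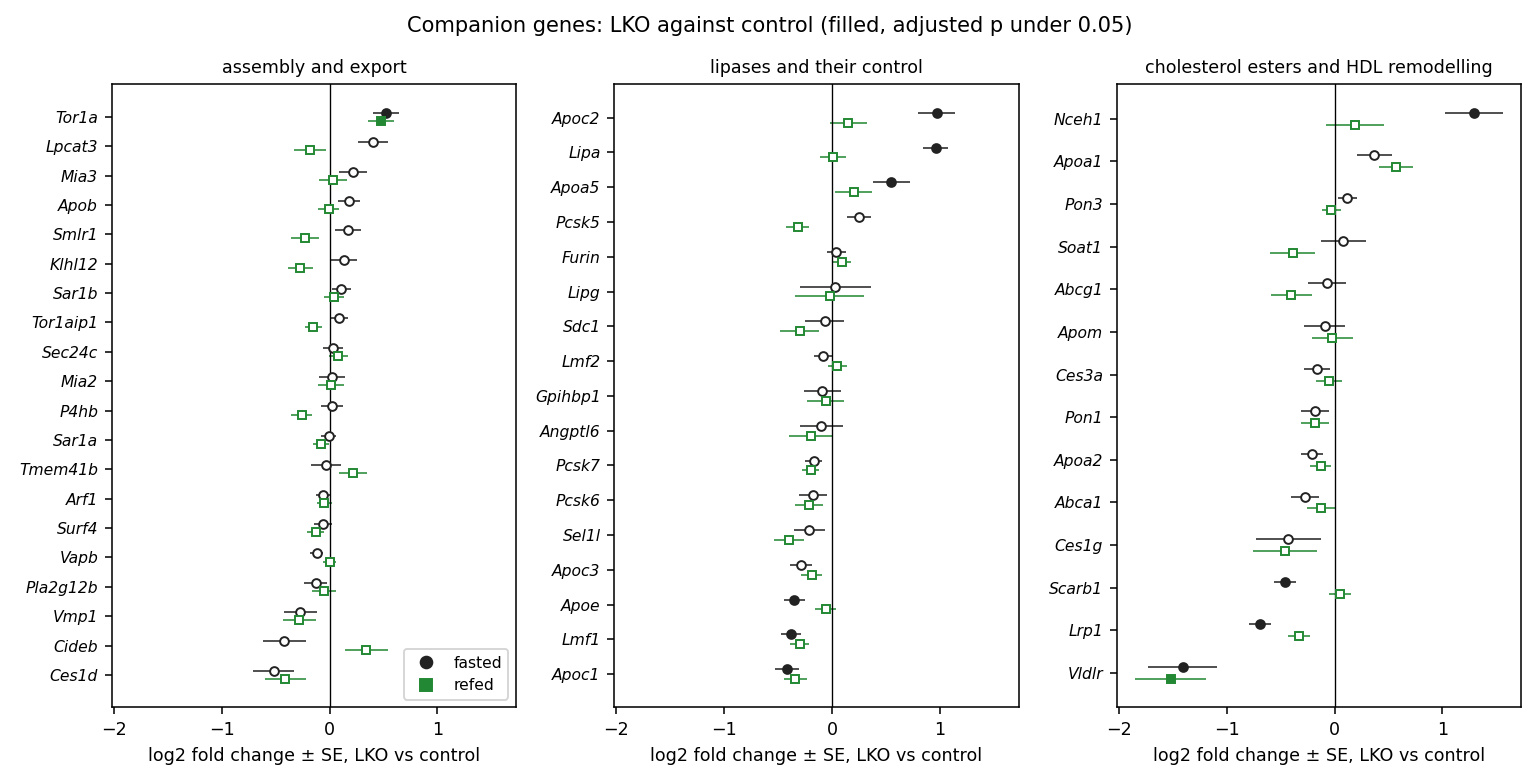
Points are edgeR log2 fold changes of LKO against control with SE as whiskers for the 51 further genes, in 1 panel per list, with circles for fasted and squares for refed livers and filled symbols where the adjusted p was under 0.05. Filled circles stand on both sides of 0, and the 2 filled squares are Tor1a and Vldlr.

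Refeeding called 12 of the 51 in controls and 10 in LKO, beside 15.4% and 18.1% of all genes tested. In assembly and export, 4 genes rose and 1 fell in controls, and 4 rose and 2 fell in LKO. Ces1d, a carboxylesterase that mobilises stored triglyceride for secretion, rose by 0.81 and 0.91 on the log2 scale (SE 0.19 each, edgeR adjusted p = 0.0115 and 0.00406), and Lpcat3, which puts polyunsaturated chains into phospholipids, fell by 0.55 and 1.12 (SE 0.15 each, edgeR adjusted p = 0.0189 and 1.16e-04). P4hb rose by 0.58 in controls (SE 0.10, edgeR adjusted p = 0.00218), where Mttp rose too, and was 0.30 higher in LKO without passing (edgeR adjusted p = 0.0551). In lipases and their control, 2 rose and 3 fell in controls, and none rose and 2 fell in LKO. In cholesterol esters and HDL remodelling, Scarb1 and Lrp1 fell in controls, and in LKO Ces3a rose and Nceh1 fell.

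Lipa was the 1 further gene called in the test of the genotype effect when refed minus that when fasted, and it stood among the 3 genes closest to Mttp in profile. Its mean was 155 and 301 CPM in fasted controls and LKO and 206 ± 7.50 and 208 ± 14.1 CPM in refed controls and LKO. The 2 genotype effects, 0.96 and 0.01, differed by -0.94 (SE 0.17, edgeR adjusted p = 0.0261), and the call held in 12 of 16 fits that left out 1 library, being lost without S40, S48, S50 or S55 (at most 0.0661).

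Likeness of profile was measured as the root mean square difference of centred log2 CPM over the 16 libraries, among 8883 genes with a mean of at least 5 CPM. Closest to Mttp were Sec23a, a coat protein of vesicles leaving the endoplasmic reticulum (0.12), Gsr, glutathione reductase (0.14), and Lipa (0.14), where the spread of Mttp about its own mean was 0.34. Closest to Angptl8 were Mid1ip1 (0.57), Celsr1 (0.67) and Cry1 (0.76), beside a spread of 1.43. For Lipc they were Cyp2d22, Dpyd and Suox (0.16 to 0.18, spread 0.37). For Pltp they were the leukocyte genes Ifi30, Tyrobp and Slc11a1 (0.23 to 0.27, spread 0.44). Lpl stood nearest to Pqbp1, Leprot and Lmo2 (0.21 to 0.24, spread 0.41), and Angptl4 to Dnmbp, Eci2 and Acot12 (0.28 to 0.31, spread 0.50). Lcat stood nearest to Prdx2, Tm2d2 and Ndufv1 (0.05 to 0.07, spread 0.13). Genes that share a profile share these libraries and their depths, and the ranking is a description.

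A list of 12 regulators of these pathways were also counted. Between fasted genotypes 2 of 12 were called, beside 12.2% of all genes tested. They were Srebf1 and Mlxipl, which encode transcription factors of lipid synthesis and of the response to sugar. Srebf1 fell from 181 to 38.0 CPM in fasted LKO (log2 fold change -2.25, SE 0.28, edgeR adjusted p = 2.38e-04) and did not pass when refed. Mlxipl, like Lipc, was lower in both states, with log2 fold changes of -0.55 and -0.42 (SE 0.08 each, edgeR adjusted p = 7.75e-04 and 0.0115). With refeeding 3 of 12 were called in controls and 5 of 12 in LKO, beside 15.4% and 18.1% of all genes tested. Ppara, Ppargc1a, Hnf4a, Foxo1 and Nr1h4 passed in none of the 5 comparisons.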

How the data were processed

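The deposited tables, 1 for each of 4 pairs of groups, give raw counts per gene, which the authors made from reads aligned with HISAT2 2.0.5 to mm39, per the submitters' processing notes. The counting tool, its use of strand and the annotation are not given in the sources used here. Libraries were made from poly-A RNA with random hexamers and dUTP, per the labels' protocols. Gene lengths in these tables were used to set CPM per kilobase for levels between genes, and the log2 fold changes and p-values of the authors' deposited tables were used only where named. A further 64 columns of values per library were not used.

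The tables were joined on gene ID. The counts of each library, which stand in more than 1 table, agreed, and 3148 genes absent from a library's tables were set to 0 there. Columns were assigned to groups by name and carry no replicate number of the labels. Genes were filtered with filterByExpr, libraries were scaled by TMM (factors 0.941 to 1.07), and edgeR 4.0.16 (R 4.3.3) fitted a quasi-likelihood model with 1 level per group to all 16 libraries. The tests compared LKO with control in each feeding state and the 2 feeding states within each genotype, and took the difference of the 2 genotype effects. P-values were adjusted by Benjamini-Hochberg over 14488 genes and called under 0.05, and SE is the fold change divided by the root of F. The fit was tested on simulated counts. CPM uses the TMM sizes and log2 CPM a prior count of 2. Alternatives were RLE and upper quartile scaling, no filter, a mean of at least 5 CPM, DESeq2 1.42.0, limma-voom (limma 3.58.1), only the 2 groups compared, adjusted p under 0.01, and leaving out each library in turn. The labels name no batch.

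Members and gene lists were chosen with earlier results of these data known. The text names all members, genes of the fixed lists as examples, Cpt1a, genes that overlap a member, and the 3 genes closest in profile to each member among protein-coding genes with a symbol other than a predicted one. Some of these genes are not reported here, and the counts of the lists leave them out. The patterns searched in promoter windows were chosen after the counts were seen. Promoter windows come from RefSeq on GRCm38.p6, and coordinates were not converted between builds.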

Additional observations from a re-analysis of the deposited data

Results flagged for a closer look

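In groups of 4, a library was singled out where its gap to the nearest other exceeded Dixon's 95% critical share of the group's range. Of 36 groups of member values, 2 met this, and chance alone does so in about 1 of 20 groups. Lipc in refed controls was 149 CPM in S49 beside 129 to 130.0 CPM in the other 3 libraries, and S49 lay farther from LKO than they did. Angptl4 in refed controls was 159 CPM in S51 beside 110.2 to 117 CPM in the others, and S51 also had the lowest Angptl8 of its group.

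The genotype effect on Lipa, lysosomal acid lipase, differed between the fasted and refed states by -0.94 on the log2 scale (SE 0.17, edgeR adjusted p = 0.0261). All 4 fasted LKO libraries lay above all 4 fasted controls, and the refed groups overlapped.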

How the results depend on the processing

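No paired analysis was possible because the count columns carry no replicate number that ties them to the labels, so the planned replicate block was not run. Over the alternatives, 1001 of 1071 member fold changes kept their side of the threshold, and no member fold change that was called reversed. Changes of sign in fold changes that did not pass were not scored, such as that of Angptl8 between refed genotypes without S48. Counts of genes called have no direction, and 202 of 246 were scored as kept by their size. In all, 1203 of 1317 values were kept. No scaling moved the median of all genes beyond 0.04 on the log2 scale. Calls of Mttp and Lipc between genotypes, and of Angptl8 with refeeding in LKO, held whichever 1 library was left out. The call of Lpl between genotypes, and the other 5 calls of members with refeeding, did not.

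The count of members called with refeeding in controls, 3, became 1 with only the 2 groups in the fit and 0 at adjusted p under 0.01, and ran from 0 to 3 with 1 library left out. In LKO, 3 became 1 at adjusted p under 0.01 and ran from 1 to 4 with 1 library left out. For the difference of genotype effects, 0 members became 1 with upper quartile scaling, with a mean of at least 5 CPM and with DESeq2, and ran from 0 to 1 with 1 library left out. The count of further genes called was 11 between fasted genotypes and 6 at adjusted p under 0.01. Between refed genotypes it was 2, with 1 at a mean of at least 5 CPM, 6 with DESeq2, 0 at adjusted p under 0.01, and 0 to 3 with 1 library left out. With refeeding in controls it was 12, with 5 at adjusted p under 0.01 and 6 to 14 with 1 library left out. For the difference of genotype effects it was 1, with 2 by DESeq2, 0 at adjusted p under 0.01, and 0 to 2 with 1 library left out. The cause was not tested.

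The lowest count of a member in any library was 105, for Angptl8 in fasted LKO. With 4 libraries a group, an exact permutation test of 4 against 4 cannot give less than 0.0286.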

Other observations

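Soat2 was also compared by profile over the 16 libraries with the 8883 genes that had a mean of at least 5 CPM, as the root mean square difference of centred log2 CPM. Closest to it were Pias3, Slc66a2 and Dhrs3 (0.16 to 0.17, beside a spread of 0.28 for Soat2 itself). These neighbours lay at 0.55 to 0.61 of the member's own spread.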
